A study of Mus musculus with 3 samples.

Results

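The genes of oxidative phosphorylation were followed in single cells of the embryonic mouse lung at E14.5. Members were all genes with a symbol of the mitochondrial genome's protein genes (mt-Nd, mt-Co, mt-Cytb, mt-Atp), of complex I (Nduf), complex II (Sdha to Sdhd), complex III (Uqcr), complex IV (Cox4 to Cox8) or ATP synthase (Atp5), provided that every library's gene table listed them. The rule found 107 symbols, of which 106 were in every table of 30406 shared genes, and Ndufb1-ps was left out. 13 members are encoded by mitochondrial DNA and 93 by nuclear DNA. The nuclear members are 38 complex I subunits, 8 complex I assembly factors, 4 subunits of complex II, 8 of complex III, 18 of complex IV and 17 of ATP synthase. These groups follow the symbols, so Ndufa4 and its relative Ndufa4l2 are counted with complex I.

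Oxidative phosphorylation passes electrons from NADH and succinate through complexes I to IV to oxygen, pumps protons across the inner mitochondrial membrane and lets ATP synthase use the gradient to make ATP. Complexes I, III, IV and ATP synthase are built from subunits of both genomes, whereas complex II is wholly nuclear encoded. The mitochondrial genes are transcribed as long precursors that are cut into separate messengers, so their levels are not set by promoters of their own, while each nuclear subunit has its own promoter and is imported after translation.

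The lungs came from embryos of C57/B6 mice and were pooled before dissociation, staining for the epithelial surface protein Epcam and the adhesion molecule Icam1, and sorting. A double gate (Epcam+ Icam+) gave 2 libraries, and a gate on Epcam alone (Epcam+) gave 1. Both sorts shared strain, age, tissue, stain and 10x 3′ v3 chemistry per the labels, and no allele or drug was part of the design. Whether each library had its own pool of lungs is not stated, so every p-value here rests on the spread among these 3 libraries and that spread may be technical.

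Depth was 74170599 and 67843828 UMIs (unique molecules) over 4739 and 4531 barcodes after the double gate, and 84460347 UMIs over 3697 barcodes in the Epcam+ library. Filters left 3308, 3087 and 2918 cells. Libraries shared at most 3 barcodes. Epithelium-like cells numbered 2107, 1898 and 2349 and macrophage-like cells 429, 367 and 54, the latter being few in the Epcam+ library. Within the epithelium, tip-like cells numbered 958, 929 and 1411, airway-like cells 235, 386 and 351, and alveolar type 1-like cells 765, 149 and 0. Most cells of each library were epithelium-like. The classes were named from the marker lists given next, and barcodes rich in the other lineage's markers were left out. The sums therefore describe the classes and do not test the sort label. The 8 pan-epithelial markers summed to 4629, 4583 and 3885 CPM (UMIs scaled to a common total) in epithelium-like cells. In macrophage-like cells they summed to 212, 203 and 422 CPM. The 12 macrophage markers summed to 12.3, 11.1 and 28.7 CPM in the epithelium against 15429, 15957 and 14724 CPM in macrophages. No marker of either list was at 0 in the class it defines. Icam1 itself had 203 and 196 CPM after the double gate and 165 CPM without it in the epithelium, and 68.3 and 81.8 against 148 CPM in macrophages, so its RNA was lower after the gate in the macrophages. The Epcam+ library stood apart from the others in ways the labels do not name. Its counts came from Cell Ranger 3.0.2 rather than 5.0.1 per the file headers, its gene table listed 31053 rather than 32285 genes, and the first 7 bases of its barcodes took 479 values against 953 and 957, so that the shared chemistry rests on the labels alone. The transcript AY036118 had 1179 and 1169 CPM in the Epcam+ Icam+ epithelium and 42.4 CPM in the Epcam+ epithelium, and Malat1, a nuclear RNA, 9482, 9006 and 6060 CPM. The part of these differences in the sort comparisons was not tested, and the sort, the library and the processing cannot be told apart.

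The mitochondrially encoded members took a larger share of UMIs, and the nuclear members a smaller share, after the double gate than after the Epcam gate alone, and this held in epithelium and in macrophages. In epithelium-like cells the 13 mitochondrial members held 3.03% and 2.98% of UMIs after the Icam gate and 2.29% without it. The 93 nuclear members held 2.70% and 2.76% against 3.45%. The ratio of mitochondrially to nuclear encoded UMIs was therefore 1.12 and 1.08 against 0.665. In macrophage-like cells the mitochondrial share was 3.59% and 3.58% against 2.06%, the nuclear share 2.48% and 2.45% against 3.38%, and the ratio 1.44 and 1.46 against 0.609. The Epcam+ library lay outside the other pair in each of these values, by a log2 difference of the mitochondrial share of 0.39 ± 0.015 in epithelium and 0.80 ± 0.00093 in macrophages (mean ± SD over the 2 Epcam+ Icam+ libraries, each against the Epcam+ library). Those of the nuclear share were -0.34 ± 0.021 and -0.45 ± 0.013. Each ratio was taken against the same Epcam+ library, so these SDs hold only the gap between the 2 Epcam+ Icam+ libraries. They hold no spread of the Epcam+ library and do not give the precision of the sort difference. For the mitochondrial share of the Epcam+ macrophages, the exact interval for counting error alone ran from 2.03% to 2.08%. An exact permutation test of 2 libraries against 1 cannot reach 0.05, so none was made. In these summed counts, fewer cells of a kind within a class and less RNA per cell cannot be told apart.

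**Figure D1:**
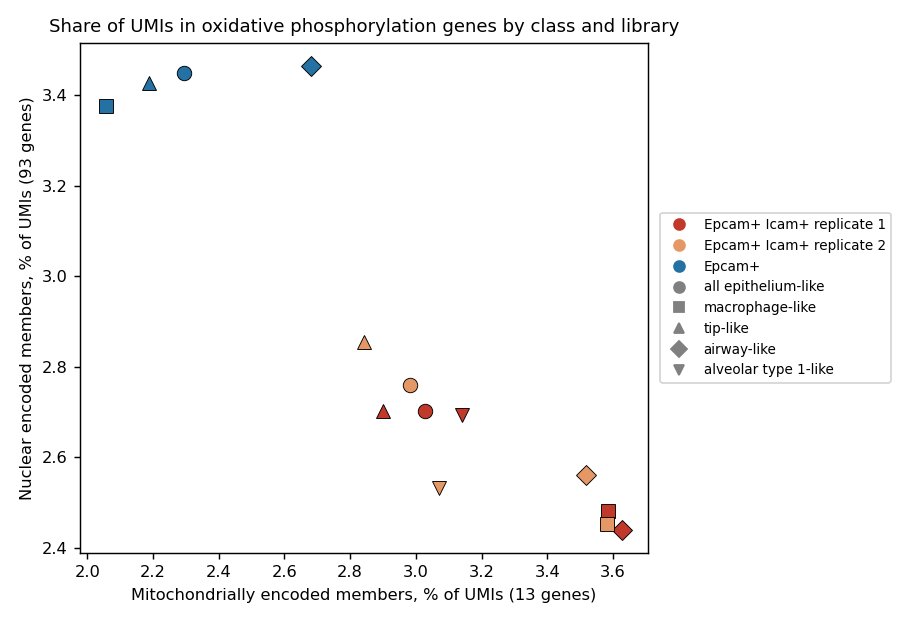
Share of all UMIs in the 13 mitochondrially encoded members (horizontal axis, percent) and in the 93 nuclear encoded members (vertical axis, percent), with 1 point for each cell class in each library, colour for the library and shape for the class. The Epcam+ points lie at the upper left, with nuclear shares from 3.38% to 3.46%, above every Epcam+ Icam+ point.

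Between classes inside a library the 2 parts were compared in the same way. Airway-like cells had a mitochondrial share of 3.63%, 3.52% and 2.68% (Epcam+ Icam+ replicates 1 and 2, then Epcam+) where tip-like cells had 2.90%, 2.84% and 2.19%, a log2 difference of 0.31 ± 0.015 (SD over 3 libraries). The airway-like share was higher in each library. With cells over 5% mitochondrial UMIs also left out, this log2 difference was 0.17. The nuclear share was 2.44%, 2.56% and 3.46% in airway-like and 2.70%, 2.86% and 3.43% in tip-like cells, lower in the airway in 2 libraries and not in the third, so its mean log2 difference of -0.096 ± 0.097 was no larger than its spread. Macrophages did not differ from epithelium in a fixed direction: their mitochondrial share was above that of epithelium in both Epcam+ Icam+ libraries and below it in the Epcam+ library (mean log2 difference 0.12 ± 0.24). Across the cells of 1 library the shares of the 2 parts were weakly inverse in the epithelium (Pearson's r -0.32, -0.38 and -0.21 over 2107, 1898 and 2349 cells). This is a description, since both shares of a cell are parts of 1 total. Cells over 10% mitochondrial UMIs had been left out, 7.91% and 8.28% of barcodes past the depth filters after the double gate and 6.18% after the Epcam gate, which bounds every mitochondrial share given here.

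The mitochondrial members did not move together between the sorts. In the epithelium-like cells 11 of 13 were higher and 2 lower after the Icam gate (edgeR quasi-likelihood test with Benjamini-Hochberg adjustment at 0.05, on counts summed per library), with a median log2 difference of 0.54. Calls were common, since 78.5% of 14698 genes tested passed (39.4% higher and 39.1% lower, median of all genes 0.02), so the count of members called says little and their direction and size more. mt-Nd6, a core subunit of complex I and the only protein encoded on the light strand, had 44.0 and 45.0 CPM after the Icam gate and 2.85 CPM without it. Its log2 difference was 3.86 (SE 0.072, adjusted p = 6.62e-15), the largest of any member. The Epcam+ side of each sort comparison is 1 library with no replicate, so every SE and p of these comparisons rests on the pair of Epcam+ Icam+ libraries and on the assumption that the lone library varies as they do. mt-Nd4l, another proton-pumping subunit of complex I, had 397 and 397 against 75.6 CPM, a log2 difference of 2.29 (SE 0.036, adjusted p = 1.22e-15). mt-Nd5 had 553 and 541 against 143 CPM, a difference of 1.83. mt-Atp8, a small subunit of the membrane part of ATP synthase, had 189 and 182 against 61.0 CPM, a difference of 1.499. In these 4 genes the pair of Epcam+ Icam+ values lay close together and far above the Epcam+ value.

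The other mitochondrial members differed less, and some the other way. The core subunits of complex IV had log2 differences of 0.83 for mt-Co2, 0.56 for mt-Co1 and 0.12 for mt-Co3. mt-Nd2 differed by 0.54, mt-Atp6, the proton channel subunit of ATP synthase, by 0.28, mt-Cytb, the only mitochondrially encoded subunit of complex III, by 0.23 and mt-Nd4 by 0.11. mt-Nd1, which lies at the junction of the membrane and matrix arms of complex I, was lower after the Icam gate, with 1752 and 1733 CPM against 2874 CPM (log2 difference -0.83, SE 0.028, adjusted p = 1.70e-12). mt-Nd3 was lower as well, with 376 and 377 CPM against 495 CPM (-0.50). The 7 complex I genes of the mitochondrial genome thus held the extremes of both directions.

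**Figure D2:**
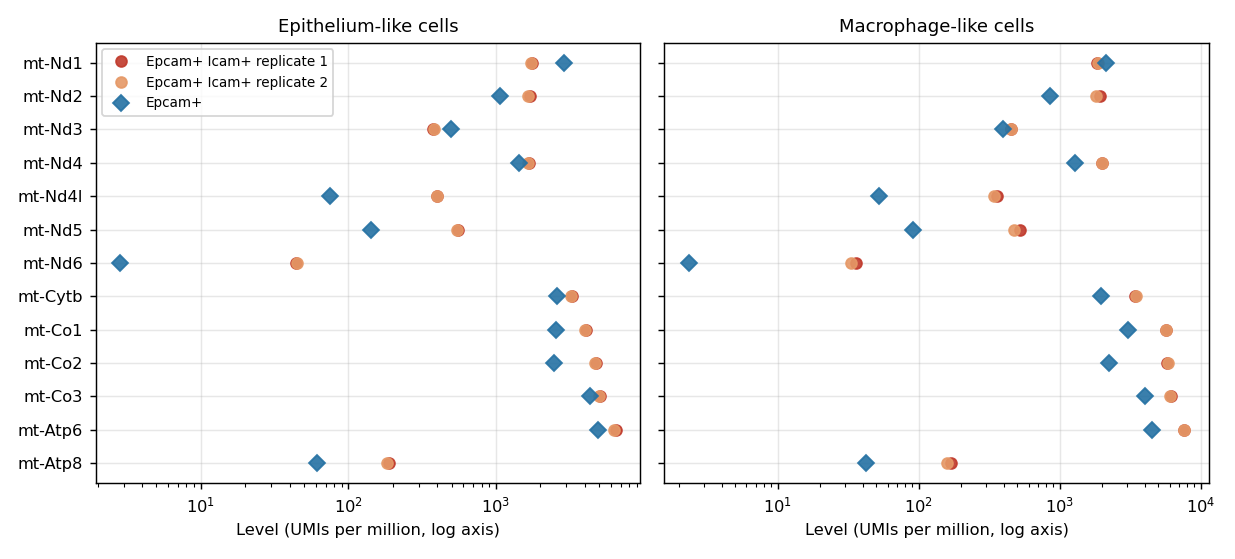
Level of each mitochondrially encoded member in CPM on a log axis, in epithelium-like cells (left) and macrophage-like cells (right), with circles for the Epcam+ Icam+ libraries and diamonds for the Epcam+ library. mt-Nd6, mt-Nd4l, mt-Nd5 and mt-Atp8 show the widest gaps, and mt-Nd1 lies higher in the Epcam+ library, by -0.83 (log2, Epcam+ Icam+ minus Epcam+) in epithelium.

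Macrophages, another lineage in the same libraries, gave nearly the same order of genes. In macrophage-like cells 12 of 13 mitochondrial members were higher and none passed the test as lower, against 23.0% of 11513 genes called higher and 18.7% lower (41.8% in all), and the median was 1.00. mt-Nd4l differed by 2.83, mt-Nd5 by 2.53, mt-Atp8 by 2.04, mt-Co2 by 1.46 and mt-Nd2 by 1.22. mt-Nd6 had 36.0 and 32.8 CPM against 2.35 CPM, the last from 3 UMIs, a ratio of levels of 14.7 with an exact 95% interval of 5.02 to 71.6 that covers counting error only. In epithelium the same ratio was 15.6 (13.5 to 18.0). mt-Nd3 was higher by 0.28 (adjusted p = 2.44e-03), and mt-Nd1, at 1830 and 1869 against 2129 CPM, did not pass (-0.11, adjusted p = 0.0926). mt-Nd1 passed as lower with RLE scaling (-0.14) and with UMI totals as the only scaling (-0.20). With barcodes that carried both lineages' markers kept, mt-Nd1 passed as lower (-0.30) and mt-Nd3 turned to -0.0088. The Epcam+ macrophages were few, at 54 cells, with 422 CPM of epithelial markers against 212 and 203 CPM in the others. Of the cells in macrophage clusters, 94 of 148 had been left out as mixed in the Epcam+ library. In the Epcam+ Icam+ libraries these were 148 of 577 and 135 of 502. The part of these differences in the result was not tested.

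Several of the genes with the widest gaps share bases with a neighbour that differed less. The sequences of these joints are shown because a read within the shared bases cannot be given to either gene with certainty, on the forward strand of the mitochondrial chromosome (GENCODE vM21 transcripts, GRCm38). Capitals mark the bases that both genes hold, with 20 bases of each neighbour on either side, at chrM:7907-7989 for the first line (shared bases 7927 to 7969) and chrM:10147-10193 for the second (shared bases 10167 to 10173).
mt-Atp8 into mt-Atp6: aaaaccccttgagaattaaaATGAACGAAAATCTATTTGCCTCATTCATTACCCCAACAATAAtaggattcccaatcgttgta
mt-Nd4l into mt-Nd4: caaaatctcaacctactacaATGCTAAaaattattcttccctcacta

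The first pair shares 43 bases and the second 7 bases, and each pair is known to be carried on 1 bicistronic messenger. mt-Nd6 lies on the reverse strand at chrM:13552-14070 and overlaps the end of mt-Nd5 at chrM:11742-13565. In each pair the count of the first gene relative to its partner was lower in the Epcam+ library. mt-Atp8 counts were 2.93% and 2.87% of mt-Atp6 counts in the Epcam+ Icam+ epithelium and 1.25% in the Epcam+ epithelium. mt-Nd4l counts were 23.7% and 24.2% of mt-Nd4 counts against 5.29%. mt-Nd6 counts were 7.97% and 8.31% of mt-Nd5 counts against 2.00%. The macrophages gave 2.23%, 2.08% and 0.938% for the first pair, 17.9%, 17.3% and 4.12% for the second and 6.90%, 6.94% and 2.56% for the last. These are ratios of UMI counts, which a 3′ library takes near the 3′ end of a messenger and which are not scaled to length. The pairs' ratios thus separated the libraries in the same way in both lineages, and in each library the first 2 pairs had lower ratios in macrophages than in epithelium. Inside the epithelium mt-Nd4l was 23.5%, 24.4% and 5.39% of mt-Nd4 in tip-like cells and 22.4%, 23.8% and 5.15% in airway-like cells.

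The ends of mt-Nd5 and mt-Nd6 are shown as the last 30 bases of each gene in its own direction, with the stop bases in capitals, since the 2 genes meet there from opposite strands.
mt-Nd5: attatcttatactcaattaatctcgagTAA
mt-Nd6: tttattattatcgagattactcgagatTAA

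The nuclear members went the other way. In the epithelium 83 of 90 tested nuclear members were lower after the Icam gate and 3 higher, where 39.1% of all genes were lower and 39.4% higher, and their median log2 difference was -0.48 against 0.02 for all genes. With a fold of at least 1.5 also required, 30 were lower and 1 higher, against 23.8% and 28.5% of all genes. Without any test, 78 of all 93 nuclear members had their highest level in the Epcam+ library, 11 their lowest and 4 lay between the other pair. Of all genes tested, 42.7% had their highest level in the Epcam+ library and 52.3% their lowest, against 86.7% and 11.1% of the 90 nuclear members tested. 3 members (Cox7b2, Cox8b and Cox8c, isoforms of testis or muscle) had too few counts to be tested, at 0.0939 CPM or less in each epithelial sum. By complex, the lower calls were 33 of 38 complex I subunits (2 higher, median -0.47), 8 of 8 assembly factors (-0.63), 4 of 4 subunits of complex II (-0.86), 8 of 8 of complex III (-0.58), 14 of 15 of complex IV (-0.41) and 16 of 17 of ATP synthase (1 higher, -0.46). In macrophages 57 of 88 nuclear members were lower and 2 higher, where 18.7% of all genes were lower and 23.0% higher, with a median of -0.38 against 0.07 for all genes.

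**Figure D3:**
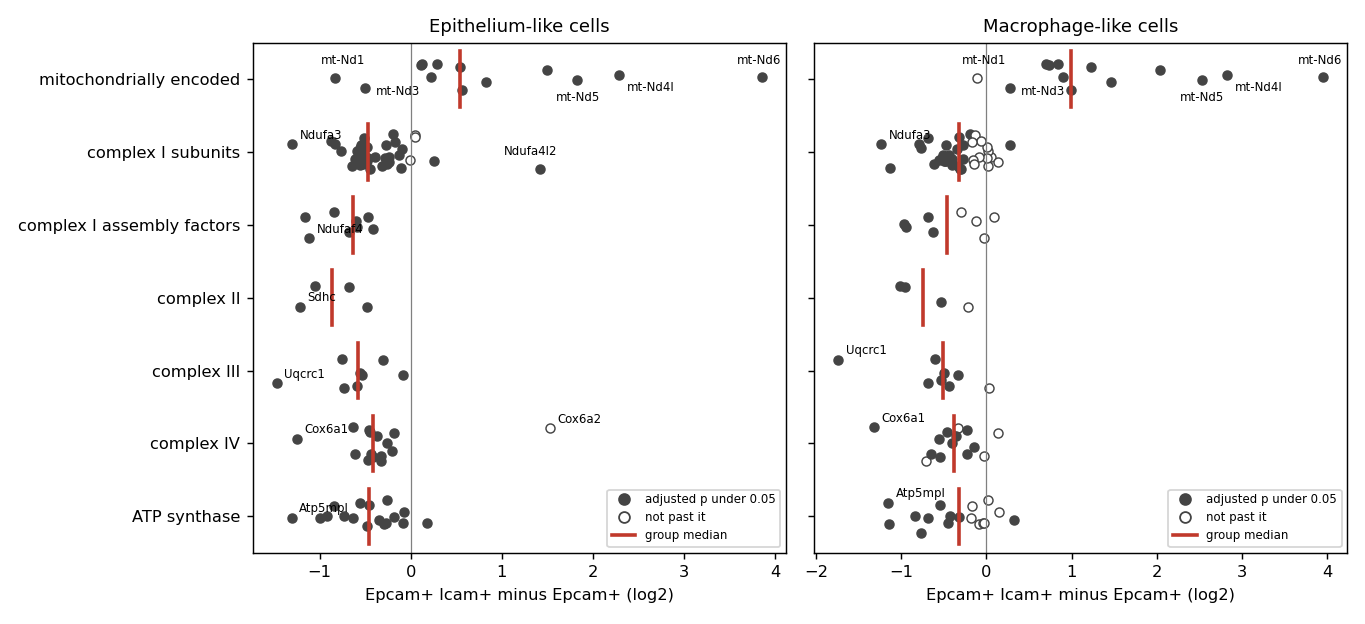
Log2 difference of each tested member between Epcam+ Icam+ and Epcam+ libraries, by complex, in epithelium-like cells (left) and macrophage-like cells (right), with filled points past an adjusted p of 0.05 (edgeR), open points not past it and a red line at each group's median. Every nuclear group has its median below 0, from -0.41 to -0.86 in epithelium, while the mitochondrial medians are 0.54 and 1.00.

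Complex II, the only complex with no mitochondrial subunit, had the lowest median. Sdhc, a membrane anchor of the complex, had 56.5 and 55.5 CPM in the Epcam+ Icam+ epithelium and 121 CPM in the Epcam+ epithelium, a log2 difference of -1.22 (SE 0.036, adjusted p = 5.04e-13 by edgeR). Sdhb, its iron-sulphur subunit, had 126 and 124 against 241 CPM (-1.05). Sdha, the flavoprotein that oxidises succinate, differed by -0.68 and Sdhd, the other anchor, by -0.48. In macrophages Sdhc, Sdhb and Sdha were lower by -1.02, -0.95 and -0.54, and Sdhd had 133 and 130 against 162 CPM without passing (-0.21, adjusted p = 0.130).

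Among members with a mean of at least 20 CPM, the 6 lowest in epithelium included Uqcrc1, a core subunit of complex III, with 97.9 and 97.5 against 251 CPM (-1.46, SE 0.033, adjusted p = 4.15e-14). Atp5mpl, a small membrane subunit of ATP synthase, had 248 and 265 against 588 CPM (-1.30). Ndufa3, an accessory subunit of complex I, had 172 and 182 against 405 CPM (-1.30). Cox6a1, the complex IV subunit 6a of most tissues, had 268 and 289 against 615 CPM (-1.25). Ndufaf4, an assembly factor of complex I, had 21.2 and 23.6 against 44.9 CPM (-1.11). In each of these genes the 2 Epcam+ Icam+ values differed from each other by far less than from the Epcam+ value. In macrophages Uqcrc1 (-1.74), Cox6a1 (-1.32), Ndufa3 (-1.23), Atp5mpl (-1.15), Atp5b (-1.15), the catalytic β subunit of ATP synthase, and Ndufb6 (-1.13) were the lowest.

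A few nuclear members did not follow. Atp5g3, 1 of 3 genes that encode the same mature c subunit of the ATP synthase rotor, had 408 and 413 against 338 CPM (0.17, adjusted p = 1.68e-04), while Atp5g1 was lower by -0.34 and Atp5g2, at 877 and 873 against 863 CPM, by -0.08 (adjusted p = 0.0157), a difference that turned to 0.02 when UMI totals were the only scaling. Ndufb9 was higher by 0.25, and it shares 201 exonic bases with Gm49356, a gene that only the Epcam+ table lists. Ndufb2, Ndufb8 and Atp5o also overlap genes that only that table lists, and reads of shared bases or of near-identical copies may not be assigned to these genes alike. Ndufb3 (0.05), Ndufb10 (0.05) and Ndufb11 (-0.01), accessory subunits of complex I, did not pass. Ndufa4l2, a relative of Ndufa4 that is near 0 in these cells, passed as higher (adjusted p = 0.0275) on 17, 41 and 16 UMIs, and Cox6a2, the muscle form, had 14, 6 and 5 UMIs and did not pass (adjusted p = 0.0626).

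The main isoforms of complex IV differed less than Cox6a1. Cox4i1, the general form of subunit 4, had 965 and 967 against 1128 CPM (-0.33). Cox6b1 differed by -0.45, Cox7a2 by -0.37, Cox7a2l by -0.26 and Cox8a by -0.21. Ndufa4, a subunit first assigned to complex I and now to complex IV, differed by -0.19 and was counted with complex I here. Cox4i2, the form of subunit 4 known from lung, had 9.95 and 12.01 against 15.6 CPM (-0.61), and Cox7a1 and Cox6b2, known from muscle and testis, differed by -0.46 and -0.19. Each of these passed the test, with SE of at most 0.106. In macrophages Cox6b1 (-0.56), Cox7a2 (-0.54), Cox7a2l (-0.23), Ndufa4 (-0.19) and Cox4i1 (-0.14) passed, and Cox8a (-0.03), Cox4i2 (-0.71), Cox6b2 (-0.34) and Cox7a1 (0.14) did not.

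Promoters of the nuclear members were read for the motifs of 3 factors known to control respiratory genes, in windows from 250 bases before to 50 bases after the start (RefSeq, GRCm38.p6). A window was found for 75 members. The palindromic NRF1 motif, whose letters are the capitals in the promoters printed here, stood in 7 of them (9.33%, against 1.07% of 27025 genes with a window), namely Uqcrc1, Cox6a1, Ndufaf4, Ndufaf5, Ndufa11, Atp5k and Atp5g2. The ETS motif CCGGAAGT, on either strand, stood in 5 (6.67% against 4.31%), and the ERR motif TCAAGGTCA, on either strand, in 2 (2.67% against 0.466%). The 2 members with the largest differences among those with the first motif are shown, in the direction of the gene, with the motif in capitals, Uqcrc1 at chr9:108936398-108936697 on the forward strand and Cox6a1 at chr5:115348909-115349208 on the reverse strand.
Uqcrc1: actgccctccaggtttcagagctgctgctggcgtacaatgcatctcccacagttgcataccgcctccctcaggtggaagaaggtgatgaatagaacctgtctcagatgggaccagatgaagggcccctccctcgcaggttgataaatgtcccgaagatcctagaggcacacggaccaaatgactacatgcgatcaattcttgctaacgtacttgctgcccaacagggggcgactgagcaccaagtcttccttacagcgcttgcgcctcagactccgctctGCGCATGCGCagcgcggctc
Cox6a1: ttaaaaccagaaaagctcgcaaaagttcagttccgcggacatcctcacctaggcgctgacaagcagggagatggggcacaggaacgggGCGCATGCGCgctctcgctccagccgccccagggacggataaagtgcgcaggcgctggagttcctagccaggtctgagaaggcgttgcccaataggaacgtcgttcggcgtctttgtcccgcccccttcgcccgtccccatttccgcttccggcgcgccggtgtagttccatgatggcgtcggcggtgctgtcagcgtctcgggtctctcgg

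The median sort difference of the 7 members with this motif was -1.11 in epithelium, ranging from -1.46 (Uqcrc1) to -0.08 (Atp5g2), and -0.47 in the 66 tested members whose window lacked it. In macrophages the medians were -0.68 and -0.34. A match of letters is not a bound site, and no test was made of these medians.

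The sort difference itself was compared between epithelium and macrophages in 1 fit with library as a block. The median of this difference, epithelium minus macrophages, was -0.70 over the mitochondrial members and -0.29 over all genes. The difference was lower in epithelium for 12 of 13 mitochondrial members, where 10.4% of 14797 genes were lower and 2.22% higher (12.7% in all). It was -0.85 for mt-Nd3 (SE 0.080), -0.79 for mt-Nd1 (SE 0.050), -0.66 for mt-Co3 (SE 0.040) and -0.51 for mt-Co1 (SE 0.042), each with an adjusted p under 0.05 in edgeR. mt-Nd6 was not told apart between classes (-0.19, SE 0.832). For the nuclear members 19 of 90 were lower and none higher with TMM scaling (median -0.16), but 5 were higher and 2 lower with RLE scaling, and 14 were higher and none lower (median 0.11) when UMI totals were the only scaling, so their direction depended on the scaling. The split of all genes moved from 329 higher and 1543 lower to 662 and 490 with UMI totals. The mitochondrial count lay between 10 and 12 under every alternative run.

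Macrophages were compared with epithelium within libraries. Because the sort difference differed between these classes, the sort does not cancel in this contrast: the median log2 ratio of the mitochondrial members at 20 CPM or more, in unscaled CPM, was 0.18 and 0.13 after the double gate and -0.33 after the Epcam gate. With TMM scaling 36 of 90 nuclear members were higher in macrophages and 6 lower (median 0.16), where 31.1% of 14239 genes were higher and 36.5% lower (67.7% in all; median of all genes -0.13), and with UMI totals as the only scaling 17 were higher and 37 lower (median -0.14; 24.6% and 50.1% of all genes). All genes split into 4432 higher and 5204 lower with TMM and into 3497 and 7137 with UMI totals. For the mitochondrial members the counts were 5 higher and none lower with TMM (median 0.29) and 1 and 4 with UMI totals. The direction of either part as a whole thus turned with the scaling, and single members are given here.

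Complex I held departures in both directions. Ndufv3, an accessory subunit of the NADH-oxidising module, had 166, 171 and 305 CPM in macrophages against 80.0, 86.9 and 131 CPM in epithelium (Epcam+ Icam+ replicates 1 and 2, then Epcam+), a log2 difference of 1.38 (SE 0.110, adjusted p = 5.67e-06 by edgeR), higher in 3 of 3 libraries. Ndufs8, an iron-sulphur subunit, had 153, 154 and 206 against 112, 117 and 152 CPM (0.73). Ndufaf8, an assembly factor, differed by 0.72, Ndufa1 by 0.62 and Ndufb10 by 0.61. On the other side Ndufs6 had 186, 179 and 247 against 329, 348 and 437 CPM (-0.57), Ndufaf2, an assembly factor, 34.9, 38.1 and 47.7 against 68.4, 70.0 and 103 CPM (-0.66), and Ndufa12, the subunit that takes the place of Ndufaf2 in the finished complex, 154, 139 and 271 against 242, 247 and 404 CPM (-0.39). Ndufab1, the mitochondrial acyl carrier protein, differed by -0.35. Within libraries, in unscaled CPM, Ndufv3 and Ndufs8 were higher in macrophages in 3 of 3 libraries. Ndufs6, Ndufaf2 and Ndufa12 were lower there in 3 of 3.

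All 4 subunits of complex II were higher in macrophages, Sdhc by 0.76, Sdha by 0.55, Sdhb by 0.48 and Sdhd by 0.41, and 10 of 15 complex IV members were higher and 2 lower. With UMI totals as the only scaling these counts were 2 higher and none lower in complex II, and 5 higher and 5 lower in complex IV. Of all genes 31.1% were higher and 36.5% lower with TMM, and 24.6% and 50.1% with UMI totals. Cox7a1, the muscle form of subunit 7a, had 9.86, 9.58 and 9.39 CPM against 4.18, 3.97 and 5.22 CPM (1.51, SE 0.198, adjusted p = 1.40e-04), and Cox6b2 had 11.5, 9.34 and 14.1 against 24.8, 23.0 and 25.3 CPM (-0.80). Cox4i1 was higher by 0.57 and Cox8a by 0.48. Cox4i2 was lower by -0.41 (adjusted p = 0.0453), and Cox6a2 passed as higher on 7, 5 and 2 UMIs in macrophages. Of the mitochondrial members, mt-Co1 (0.71), mt-Co2 (0.46), mt-Co3 (0.45), mt-Atp6 (0.42) and mt-Nd4 (0.42) passed as higher. mt-Co1 was higher in unscaled CPM in 3 of 3 libraries, but the other 4 were higher in the 2 Epcam+ Icam+ libraries and lower in the Epcam+ library, where mt-Co2 had 2244 CPM in macrophages against 2465 CPM in epithelium. Leaving out the Epcam+ library, which holds only 54 macrophages, gave 12 mitochondrial members higher, and 61 nuclear members higher and 14 lower, where 38.8% of all genes were higher and 41.2% lower. Leaving out either Epcam+ Icam+ library gave 1 mitochondrial member higher (mt-Co1), and 14 or 15 nuclear members higher and 3 lower, where 23.0% of all genes were higher and 26.1% or 26.6% lower. Ndufv3, Ndufs8, Ndufaf8, Ndufa1, Ndufb10, Ndufs6, Ndufaf2, Sdhc, Cox4i1, Cox7a1 and Cox6b2 passed in each of these fits, and Ndufa12, Ndufab1, Cox8a, Sdhb and Sdhd did not without an Epcam+ Icam+ library.

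Within the epithelium, airway-like cells were set against tip-like cells. The tip is the growing distal end of the branching epithelium and the airway its maturing proximal part, and the distal markers summed to 8035, 8355 and 4172 CPM in tip-like and 642, 1086 and 1745 CPM in airway-like cells. 10 of 13 mitochondrial members were higher in airway-like cells and none lower, with a median log2 difference of 0.23, where 13% of 13160 genes were higher and 16.2% lower (29.2% in all; median -0.01). mt-Co1 had 5150, 4934 and 3212 CPM in the airway against 3840, 3758 and 2367 CPM in the tip (0.33, SE 0.031, adjusted p = 2.12e-03). mt-Cytb had 4081, 3915 and 3141 against 3104, 3081 and 2443 CPM (0.28), mt-Nd5 679, 631 and 177 against 528, 518 and 134 CPM (0.26) and mt-Nd4 2084, 1968 and 1710 against 1615, 1569 and 1360 CPM (0.25). In unscaled CPM all 13 members were higher in the airway in each Epcam+ Icam+ library, and all 12 with at least 20 CPM in the Epcam+ library. mt-Nd1 was not higher in the test, which also scales the sums, with 1829, 1774 and 2978 against 1782, 1698 and 2835 CPM (-0.03, adjusted p = 0.529).

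40 of 89 nuclear members were lower in airway-like cells and 5 higher, with a median of -0.20, and with UMI totals as the only scaling 16 were lower and 5 higher (median -0.11; 11.5% of all genes lower and 17.7% higher). All genes split into 1715 higher and 2134 lower with TMM and into 2326 and 1518 with UMI totals. Lower calls were 16 of 38 complex I subunits, 3 of 8 assembly factors, 2 of 4 complex II subunits, 4 of 8 complex III, 4 of 14 complex IV and 11 of 17 ATP synthase members. Ndufv1, which binds NADH and the flavin at the entry of complex I, had 60.0, 61.3 and 93.4 CPM against 88.3, 82.2 and 115 CPM in the tip (-0.51, SE 0.078, adjusted p = 7.36e-03). Ndufb7 had 210, 244 and 343 against 318, 334 and 384 CPM (-0.49), Sdhd 95.7, 91.1 and 138 against 131, 129 and 162 CPM (-0.48) and Ndufab1 283, 288 and 350 against 383, 373 and 410 CPM (-0.43). Ndufaf4 and Ndufa9 differed by -0.45 and -0.38. The gaps were narrower in the Epcam+ library, where the median log2 ratio of 84 nuclear members at 20 CPM or more was 0.00 in unscaled CPM, against -0.15 and -0.17 over 82 members in the others. Whether that difference between libraries passes a test was not examined.

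The higher nuclear members were Cox7a2l, with 400.3, 433 and 451 against 305, 349 and 365 CPM (0.25), Ndufa6, an accessory subunit of complex I, with 226, 243 and 325 against 178, 204 and 257 CPM (0.22), Cox6b2 (0.40), Cox7a1 (0.54) and Ndufa4l2, whose 1, 27 and 10 UMIs in airway-like cells against 9, 8 and 6 in tip-like cells were not higher in each library. Median depth was lower in airway-like cells (17933, 17196 and 24697 UMIs per cell against 25535.5, 21956 and 30792), and its part in the result was not tested. Among non-epithelial marker lists, those of mesenchyme, smooth muscle, erythroid cells, macrophages and mesothelium had higher sums in airway-like cells in each library. The 8 mesenchyme markers summed to 37.5, 27.6 and 16.9 CPM there, with 2, 3 and 1 of them at 0, against 6.23, 4.69 and 3.17 CPM in tip-like cells. The 4 smooth muscle markers summed to 359, 293 and 103 against 177, 142 and 78.6 CPM. Erythroid markers summed to 41.2, 97.6 and 47.0 against 4.34, 6.35 and 44.1 CPM. The lists of mast and basophil cells, pericytes, endothelium and neural cells were not higher in every library. The part of any of these lists in the result was not tested. Leaving out the Epcam+ library gave 66 nuclear members lower and 3 higher with 11 mitochondrial members higher, where 23.4% of all genes were lower and 19.8% higher. Leaving out replicate 1 or 2 of Epcam+ Icam+ gave 3 or 1 nuclear members lower and 2 or 1 mitochondrial members higher, where 4.22% or 2.85% of all genes were lower and 4.83% or 4.1% higher. Among the members named here Cox4i2 and mt-Co1 passed in every such fit. With cells over 5% mitochondrial UMIs also left out, 2 of 13 mitochondrial members were higher and 1, mt-Nd1, lower. In that fit 13.1% of 13249 genes were higher and 17.6% lower, so the count of mitochondrial members higher was near the background.

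**Figure D4:**
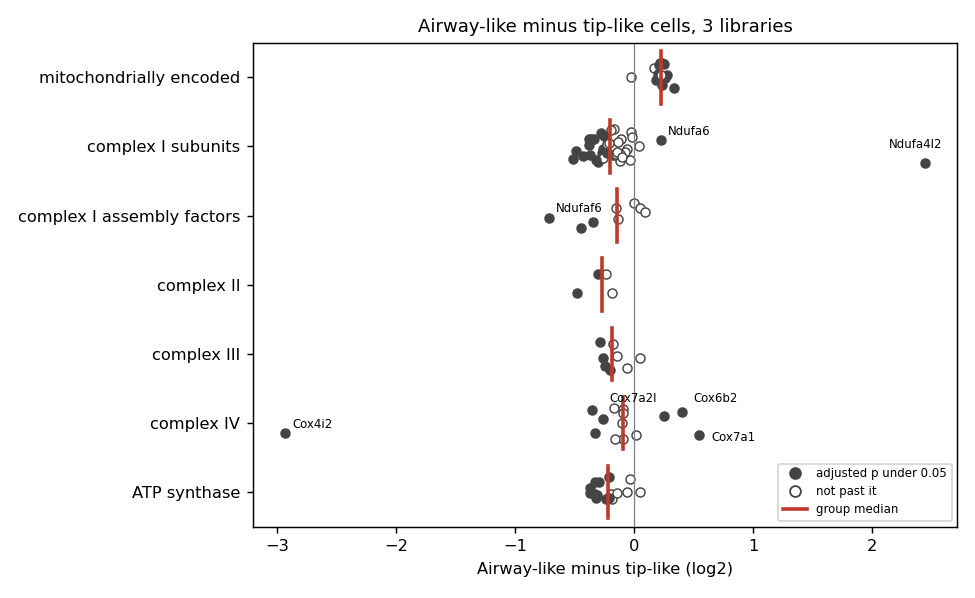
Log2 difference of each tested member between airway-like and tip-like cells over 3 libraries, by complex, with filled points past an adjusted p of 0.05 (edgeR, library as a block), open points not past it and a red line at each group's median. The mitochondrial members cluster near 0.23 and the nuclear groups below 0, and Cox4i2 stands apart at -2.94.

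Cox4i2 had the largest difference of any member between tip and airway. Subunit 4 is the regulatory subunit of complex IV that binds ATP, and its second form is known for high levels in lung and for induction at low oxygen. Cox4i2 had 11.8, 16.7 and 21.2 CPM in tip-like cells and 0.212, 1.80 and 4.49 CPM in airway-like cells, a log2 difference of -2.94 (SE 0.344, adjusted p = 3.53e-03 by edgeR), lower in 3 of 3 libraries. The counts were 299, 362 and 990 UMIs in the tip and 1, 12 and 47 UMIs in the airway. The ratio of levels, tip over airway, was 55.6 (exact 95% interval 9.91 to 2204), 9.26 (5.23 to 18.1) and 4.72 (3.52 to 6.47), so the Epcam+ library had the smallest ratio. Cox4i1, its general counterpart, had 924, 981 and 1113 CPM in the tip and 904, 964 and 1146 CPM in the airway, and did not pass (-0.09, adjusted p = 0.138). Of all subunit 4 UMIs, Cox4i2 made up 1.26%, 1.67% and 1.87% in tip-like cells and 0.0235%, 0.186% and 0.390% in airway-like cells, so it was the minor form in both. Pericyte markers, a cell type in which Cox4i2 is also known, summed to 3.87, 3.68 and 1.69 CPM in tip-like cells and 0.849, 1.35 and 1.62 CPM in airway-like cells, and their part in the result was not tested. In macrophages, not a known source of it, Cox4i2 made up 0.518%, 0.558% and 0.795%. RNA free in the suspension had not been removed. The airway values were all below those of macrophages, and whether either are expression or free RNA was not tested.

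Cox4i2 also varied inside the tip. Among the 3, 3 and 5 tip-like clusters of the libraries, its level ranged from 4.87 to 13.6 CPM, from 4.85 to 26.8 CPM and from 5.77 to 35.2 CPM. The lowest value of each library was below the level in its macrophages, and whether such values are expression or free RNA was not tested. The highest epithelial cluster of Epcam+ Icam+ replicate 1 had 38.7 CPM of Cox4i2 with 179 CPM of Sftpb, a surfactant protein gene, and was left unnamed. For the ratio of mitochondrially to nuclear encoded UMIs, clusters of low depth were left out. Over the other epithelial clusters it ran from 0.853 to 1.49 and from 0.902 to 1.44 after the double gate. After the Epcam gate it ran from 0.540 to 0.806, so these clusters of the 2 sorts did not overlap although they spread widely within each. Low-depth epithelial barcodes, summed per library, went the other way. Their ratios were 0.459 and 0.590 after the double gate and 1.48 after the Epcam gate. Clusters rest on the genes of the same cells, and these ranges are given without a test.

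**Figure D5:**
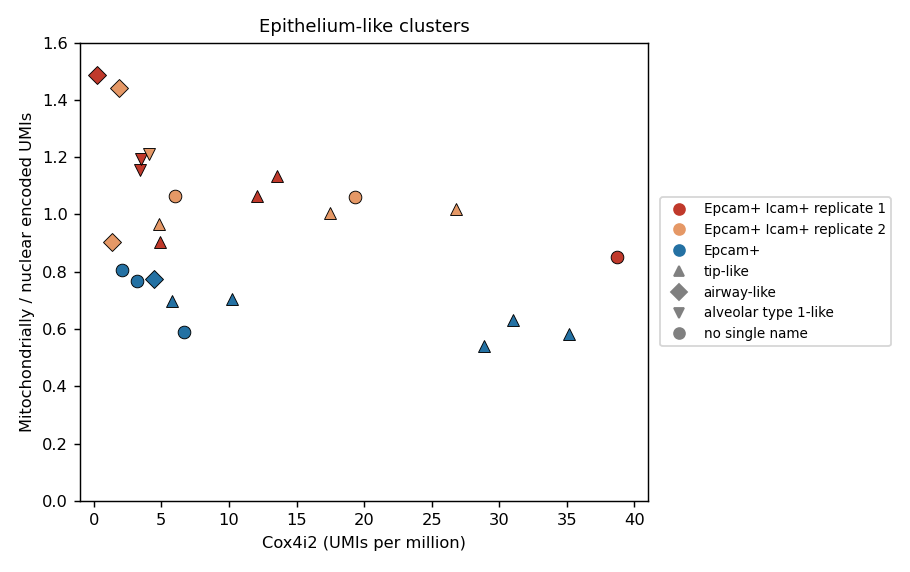
Ratio of mitochondrially to nuclear encoded UMIs (vertical axis) against the level of Cox4i2 in CPM (horizontal axis), with 1 point for each epithelium-like cluster of each library, colour for the library and shape for the cluster's name. Clusters of low depth are not shown. Every Epcam+ cluster shown lies at or below 0.806 and every Epcam+ Icam+ cluster shown at or above 0.853.

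Alveolar type 1-like cells were compared with tip-like cells in the 2 libraries that held them, on 4 sums. 9 of 88 nuclear members were lower and 2 higher, and 2 of 13 mitochondrial members higher, where 8.56% of 12841 genes were higher and 11.1% lower (19.7% in all). The count of nuclear members lower was thus near the background and that of members higher below it. Cox7a2l had 437 and 469 CPM in these cells against 305 and 349 CPM in the tip (0.52, SE 0.105, adjusted p = 1.48e-05 by edgeR), and Ndufa6 had 235 and 237 against 178 and 204 CPM (0.36). The same pair was higher in airway-like cells, a comparison that shares its tip-like cells. Ndufaf4 (-0.64), Ndufaf2 (-0.46), Ndufa12 (-0.45), Ndufab1 (-0.39), Ndufa5 (-0.39) Ndufs7 (-0.37), Sdhd (-0.36) and Atp5g1 (-0.35) were lower. Cox4i2 had 3.44 and 4.11 against 11.8 and 16.7 CPM (-1.81, SE 0.249, adjusted p = 1.67e-11). It made up 0.332% and 0.397% of subunit 4 UMIs there, below the share in macrophages of the same libraries. The shares in airway-like cells of these libraries were lower still, at 0.0235% and 0.186%. Whether the alveolar type 1-like levels are expression or free RNA was not tested. mt-Co3 (0.23) and mt-Co1 (0.22) passed. These counts moved with the settings for clustering and filtering. They ran from 0 to 10 for mitochondrial members higher. For nuclear members they ran from 0 to 19 higher and from 0 to 24 lower. With the 5% cap on mitochondrial UMIs only 0.292% of 13010 genes were higher and 0.323% lower, so few genes of any kind passed in that fit.

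The other genes that serve the same machinery were counted by list. In the sort comparison of the epithelium the carrier cytochrome c (Cycs, 192 and 190 against 341 CPM, -0.94) was lower. So was cytochrome c1, a complex III subunit outside the member rule (Cyc1, -0.84). Their list holds electron carriers, Coq genes of ubiquinone synthesis and complex III genes outside the rule, with 11 of 16 lower and 3 higher. Lower were 14 of 17 complex IV assembly genes (2 higher), 5 of 5 of ATP synthase assembly and inhibition, 10 of 13 of the tricarboxylic acid cycle (2 higher) and 8 of 8 carriers and porins. Slc25a5, an ADP/ATP carrier, had 299.66 and 299.99 CPM against 695 CPM (-1.32), and Mdh2, malate dehydrogenase of the cycle, 178 and 174 against 351 CPM (-1.10). Of the genes that express mitochondrial DNA, 18 of 24 were lower and 4 higher, among them Tfam, which packages that DNA and starts its transcription, with 48.1 and 48.6 against 65.1 CPM (-0.54) and Polrmt, the mitochondrial RNA polymerase, with 4.01 and 4.53 against 6.33 CPM (-0.68). The background shares, 39.1% lower and 39.4% higher, apply to each of these counts.

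The regulators split. Ppargc1a, a coactivator of mitochondrial genes, had 27.5 and 30.6 CPM in the Epcam+ Icam+ epithelium against 11.4 CPM (1.24, adjusted p = 8.95e-10 by edgeR), Gabpa, an ETS factor, 28.8 and 26.0 against 11.9 CPM (1.10) and Hif1a, the oxygen-sensing factor, 71.2 and 72.1 against 39.3 CPM (0.76). Nrf1, whose motif was searched above, had 26.9 and 26.8 against 29.1 CPM (-0.22). In all 5 of 10 regulators were higher and 4 lower. Between airway and tip, Nrf1 had 22.5, 22.2 and 22.1 against 31.7, 28.1 and 31.8 CPM (-0.54, adjusted p = 0.0109), Tfam 43.5, 38.8 and 56.0 against 51.8, 51.0 and 69.2 CPM (-0.41), Cycs 157, 145 and 308 against 218, 201 and 365 CPM (-0.48), and Myc, a growth regulator, 51.5, 35.8 and 18.6 against 16.7, 14.9 and 8.54 CPM (1.25). The cycle had 6 of 13 genes lower and the carriers and porins 5 of 8, with none higher. Electron carriers and complex III genes outside the member rule had 5 of 16 lower (1 higher) and the regulators 3 of 10 (1 higher). The genes that express mitochondrial DNA had 2 of 24 lower (1 higher). Complex IV assembly had 1 of 17 lower (1 higher) and ATP synthase assembly and inhibition 1 of 5. Of all genes 16.2% were lower and 13% higher. The lists of mitochondrial DNA expression and complex IV assembly lay below both shares.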

How the data were processed

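The 3 libraries were analysed as UMI counts per gene and barcode, which the authors deposited as filtered matrices. Alignment used Cell Ranger, version 2.1.1 per the submitters' processing notes and 5.0.1 or 3.0.2 per the file headers. Genes were joined by Ensembl ID. Cells with at least 1000 UMIs, 500 genes and at most 10% mitochondrial UMIs were kept, and the highest doublet scores, 0.8% per 1000 barcodes, were left out with scanpy 1.11.5 (Python 3.11.15). Each library was clustered (Leiden, resolution 1, 2000 variable genes, 30 components, 15 neighbours, seed 1) without the members, and clusters were named from marker lists. Barcodes in which markers of the other lineage exceeded 1000 CPM (UMIs scaled to a common total) were left out, as were clusters of low depth. Median depth of epithelium-like cells was 20656, 20863.5 and 28443 UMIs. Free RNA was not removed.

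Counts were summed per class and library and tested with edgeR 4.0.16 (R 4.3.3, quasi-likelihood, TMM, filterByExpr, Benjamini-Hochberg adjustment over all genes tested at 0.05), with library as a block between classes. With 3 libraries the residual degrees of freedom are 1 or 2, so the spread is estimated mostly across genes. Exact 95% intervals cover counting error only. Named members are the mitochondrial members, isoforms, complex II and, per comparison, the 6 nuclear members with the largest difference in each direction that passed with a mean of at least 20 CPM. The members and lists were chosen with earlier results of these data known. Alternatives were DESeq2 1.42.0, RLE scaling, no filter on low counts, other totals, caps, doublet and clustering settings, and leaving out libraries. 4 more were chosen after seeing the data: joint clustering, mixed barcodes kept, low-depth clusters in the epithelium, and UMI totals as the only scaling.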

Additional observations from a re-analysis of the deposited data

Results flagged for a closer look

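The sort difference itself differed between epithelium and macrophages (interaction term in edgeR, adjusted p under 0.05) for 12 mitochondrially and 19 nuclear encoded members. Each was lower in epithelium, where 10.4% of 14797 genes were lower and 2.22% higher. The median over all genes was -0.29 and that over the nuclear members -0.16, so some nuclear values given here lie near that of all genes. The count of nuclear members moved with the settings, as given in the next section. Given as the log2 sort difference in epithelium minus that in macrophages, the values were -0.853 for mt-Nd3, -0.791 for mt-Nd1, -0.778 for mt-Nd5, -0.76 for mt-Nd2, -0.745 for mt-Cytb and -0.71 for mt-Co2. They were -0.704 for mt-Nd4, -0.658 for mt-Co3, -0.638 for mt-Atp6, -0.62 for mt-Nd4l, -0.619 for mt-Atp8 and -0.513 for mt-Co1. Among the named nuclear members they were -0.401 for Ndufb7, -0.382 for Atp5g1, -0.371 for Ndufa13, -0.345 for Sdhd and -0.342 for Ndufab1. They were -0.312 for Atp5k, -0.304 for Atp5g2, -0.263 for Cox4i1 and -0.257 for Cox8a. Cox4i1 and Cox8a turned above 0 with UMI totals as the only scaling.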

How the results depend on the processing

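No paired analysis was possible because, between the sorts, the Epcam+ library carries no replicate number and fewer than 2 numbers are shared. Comparisons between classes had library as a block. Where a count or value moved beyond the range set for it, the cause was not tested.

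With UMI totals as the only scaling, the medians turned to 0.11 (nuclear, sort difference in epithelium minus macrophages), -0.0038 (mitochondrial, macrophages minus epithelium) and -0.14 (nuclear, macrophages minus epithelium), Atp5g2 to 0.021 in the sort difference of epithelium, and the difference between classes to 0.0087 for Cox4i1, 0.27 for Cox6a1, 0.014 for Cox8a and 0.20 for Ndufa4. Cox6b1, macrophages minus epithelium, turned to -0.0342, and in the same comparison Atp5g2 turned to -0.19, mt-Atp8 to -0.27, mt-Nd4l to -0.27, mt-Nd5 to -0.28 and mt-Nd6 to -0.37. mt-Nd3 turned to -0.0088 in the sort difference of macrophages with mixed barcodes kept. The median of all genes moved by 0.27 (difference between classes), -0.34 (macrophages minus epithelium) and 0.11 (sort, epithelium) with UMI totals, and by 0.15 with RLE scaling or DESeq2 in the first.

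Nuclear members higher in the sort difference of epithelium numbered 6 with low-depth clusters in and 7 with UMI totals. In macrophages, mitochondrial members lower numbered 1 with RLE, mixed barcodes or UMI totals. Nuclear members higher numbered 0 with DESeq2, no cap, the 5% cap, doublets kept or Leiden resolution 2, and 1 with overlapping members left out or UMI totals, and those lower 36, 32 and 36 with DESeq2, the 5% cap and doublets kept. For the difference between classes, nuclear members higher numbered 5 (RLE), 1 (mixed) and 14 (UMI totals), and lower 2 (RLE), 1 (Leiden 2), 47 (mixed) and 0 (DESeq2, no cap, 5% cap, doublets kept, UMI totals).

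In macrophages minus epithelium, nuclear members lower numbered 11 (RLE) and 37 (UMI totals), and 3 to 14 with a library left out. Those higher numbered 22 (no filter), 21 (mixed) and 17 (UMI totals), and 14 to 61 with a library left out. Mitochondrial members higher numbered 1 (mixed, UMI totals) and 1 to 12 with a library left out, and lower 4 (UMI totals). In airway minus tip, nuclear members higher numbered 3 (no filter, DESeq2) and 0 to 3 with a library left out, and lower 20 (Leiden 2), 16 (UMI totals) and 1 to 66 with a library left out. Mitochondrial members higher numbered 2 (5% cap), 5 (Leiden 2) and 1 to 11 with a library left out, and lower 1 (5% cap).

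In alveolar type 1-like minus tip, mitochondrial members higher numbered 5 (RLE), 1 (no filter), 6 (no cap), 8 (doublets kept), 10 (members among variable genes) and 0 (DESeq2, 5% cap, Leiden 2, UMI totals). Nuclear members higher numbered 1 (no filter, DESeq2, UMI totals), 6 (no cap), 19 (doublets kept), 5 (variable genes) and 0 (5% cap, Leiden 2). Those lower numbered 1 (DESeq2, 5% cap), 24 (no cap), 22 (variable genes) and 0 (Leiden 2). With the 5% cap 0.292% of all genes were higher and 0.323% lower.

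The log2 ratio of the mitochondrial share between sorts in epithelium was 0.42 (no cap), 0.31 (5% cap) and 0.34 (low-depth in), and in macrophages 0.79 (no cap, joint clustering), 0.71 (5% cap), 0.78 (doublets kept, Leiden 2) and 0.70 (mixed). That of the nuclear share in macrophages was -0.43 (no cap) and -0.42 (5% cap, doublets kept, Leiden 2). That of the mitochondrial to nuclear ratio was 0.64 (5% cap) and 0.67 (low-depth in) in epithelium and 1.22 (no cap), 1.13 (5% cap), 1.21 (doublets kept, Leiden 2) and 1.15 (mixed) in macrophages. Between airway and tip the mitochondrial share ratio was 0.34 (no cap), 0.17 (5% cap) and 0.24 (Leiden 2), and the mitochondrial to nuclear ratio 0.23 (5% cap) and 0.29 (Leiden 2).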

Other observations

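Mitochondrial ribosomal proteins, which translate the mitochondrially encoded members, were lower after the Icam gate in 73 of 78 genes tested in epithelium and higher in 2 (median log2 difference -0.51), where 39.1% of all genes were lower and 39.4% higher. Between airway-like and tip-like cells 57 were lower and 1 higher (median -0.36; 16.2% and 13% of all genes), and 35 were lower and 1 higher with UMI totals as the only scaling (11.5% and 17.7% of all genes).

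Cox4i2 had 130 CPM, from 31 UMIs, in the mesenchyme-like cluster of Epcam+ Icam+ replicate 2 and 45.3 CPM in that of the Epcam+ library. Epithelial barcodes of low depth, kept out of every comparison, had a median mitochondrial share per cell of 0.383% and 0.330% after the double gate and 4.16% after the Epcam gate.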
